A study of Mus musculus with 19 samples.

Results

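The genes described here present peptides on MHC class II molecules in NOD mice: H2-Aa, H2-Ab1 and H2-Eb1 (chains of the class II molecules), Cd74 (the invariant chain), H2-DMa, H2-Oa and H2-Ob (chains of the molecules that edit the peptide) and Ciita (the coactivator of class II transcription). They were chosen by name, and every probe set whose platform annotation names 1 of them alone was taken, which gave 16 of the 45037 probe sets tested and 8 of 18193 genes. H2-Aa has 4 probe sets, H2-Ab1 and Ciita have 3 each, H2-DMa has 2, and H2-Eb1, Cd74, H2-Oa and H2-Ob have 1 each. A gene is given by its probe set of highest mean log2 signal, and the others are given where they go another way. 1 further probe set names H2-Ob together with another gene and was left out.

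The series holds 19 Affymetrix mouse arrays of fat and of pancreatic lymph nodes (PLNs) from female mice of the NOD strain, written NOD/LtJx in the labels, which develop autoimmune diabetes spontaneously. NOR mice were normoglycemic, DIA mice had newly become diabetic, AAT mice were new onset diabetic mice given alpha1 antitrypsin, a serum protease inhibitor, and PM mice were new onset diabetic mice given Power Mix, which joins IL2.Ig, an antagonist-type mutant IL15.Ig and rapamycin. Fat was measured on 2 NOR, 2 DIA, 2 AAT and 3 PM arrays, and PLNs on 4 NOR, 2 DIA and 4 AAT arrays. Neither the age of the mice nor whether each array is a separate mouse is given in the labels, so the p-values measure the spread between arrays, which may be technical. A text on streptozotocin stands in the labels of all arrays, but no group is labelled as having received it. All values are MAS5 signals on a linear scale or their log2. A signal is compared with that of another probe set only as a ratio within an array, for H2-Ab1, or to rank the probe sets of a gene by brightness.

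An MHC class II molecule is a dimer of an alpha and a beta chain that shows peptides from endosomes to CD4 T cells. The invariant chain fills the new groove and guides the dimer to the endosome, H2-DM exchanges the last piece of the invariant chain for peptides, and H2-O, found mainly in B cells and some dendritic cells, restrains H2-DM. Ciita does not bind DNA itself but acts through the RFX, CREB and NF-Y factors that sit on the X and Y boxes of the class II promoters. NOD mice carry the I-Ag7 allele of the I-A molecule, the strongest inherited risk for their diabetes, and make no I-E molecule because their H2-Ea gene is defective. In whole tissue, fewer cells of a type and less RNA per cell cannot be told apart.

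The promoters of these genes are shown first because the X and Y boxes are what the family shares. H2-Aa, H2-Ab1, H2-Eb1, H2-DMa, H2-Oa and H2-Ob lie on chromosome 17 (RefSeq, GRCm38.p6). In the RefSeq windows around transcription starts, a stretch with GNAAC (the start of the X box, with N any base) followed after 20 to 30 bases by TGATTGG (the Y box, bound by NF-Y) was found for 4 members and for 2 other class II genes, H2-DMb1 and H2-Eb2. The letters searched were chosen after these promoters had been read. For these genes the strand of the gene was searched, and for the shares of all windows below both strands were. Capitals mark GNAAC and TGATTGG, and each sequence is written 5′ to 3′ on the strand of its gene.
H2-Aa: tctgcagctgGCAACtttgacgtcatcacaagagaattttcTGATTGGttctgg
H2-Eb1: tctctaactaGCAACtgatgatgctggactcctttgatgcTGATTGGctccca
H2-Oa: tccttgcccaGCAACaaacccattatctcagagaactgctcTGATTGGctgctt
H2-Ob: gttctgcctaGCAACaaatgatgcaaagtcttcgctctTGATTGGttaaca
H2-DMb1: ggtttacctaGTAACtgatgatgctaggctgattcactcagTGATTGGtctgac
H2-Eb2: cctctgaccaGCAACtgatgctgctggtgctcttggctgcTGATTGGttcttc

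The stretches lie at chr17:34287861-34287914 on the minus strand for H2-Aa and, on the plus strand, at chr17:34305766-34305818 for H2-Eb1, chr17:34092293-34092346 for H2-Oa, chr17:34238808-34238858 for H2-Ob, chr17:34153087-34153140 for H2-DMb1 and chr17:34325533-34325585 for H2-Eb2. The boxes were 26 bases apart in H2-Aa, H2-Oa and H2-DMb1, 25 in H2-Eb1 and H2-Eb2 and 23 in H2-Ob. Of all 32851 windows, 0.323% held such a pair on either strand, 7.82% held TGATTGG and 84.8% held GNAAC, 5 letters that occur often by themselves. The windows of H2-DMa and H2-DMb2 held no pair of these letters on the strand of the gene. A match is a description of the letters and not a measured site.

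The arrays were scaled to the same trimmed mean, so they differed in how much of the signal lay in bright probe sets. The median signal of an array was 176 to 286 in fat and 92.3 to 279 in PLNs, with the 2 lowest on AAT replicates 2 and 4 of the PLNs. In PLNs the median log2 change of all probe sets was -0.58 for AAT against DIA and -0.72 for AAT against NOR, while in the probe sets above the 90th percentile of mean signal it was 0.42 and 0.38. Changes are therefore given relative to the median of all probe sets, with the measured change beside many of those in PLNs where the 2 differ. The adjusted p (limma, Benjamini-Hochberg over all probe sets) belongs to the measured change. The tissue markers went with the labels: 10 of 11 T cell markers were called higher in NOR PLNs than in NOR fat and 7 of 8 adipocyte markers were called lower, among them Adipoq, the gene of adiponectin, with a relative log2 change of -8.22 ± 0.88 (SE; adjusted p = 6.38e-07).

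**Figure D1:**
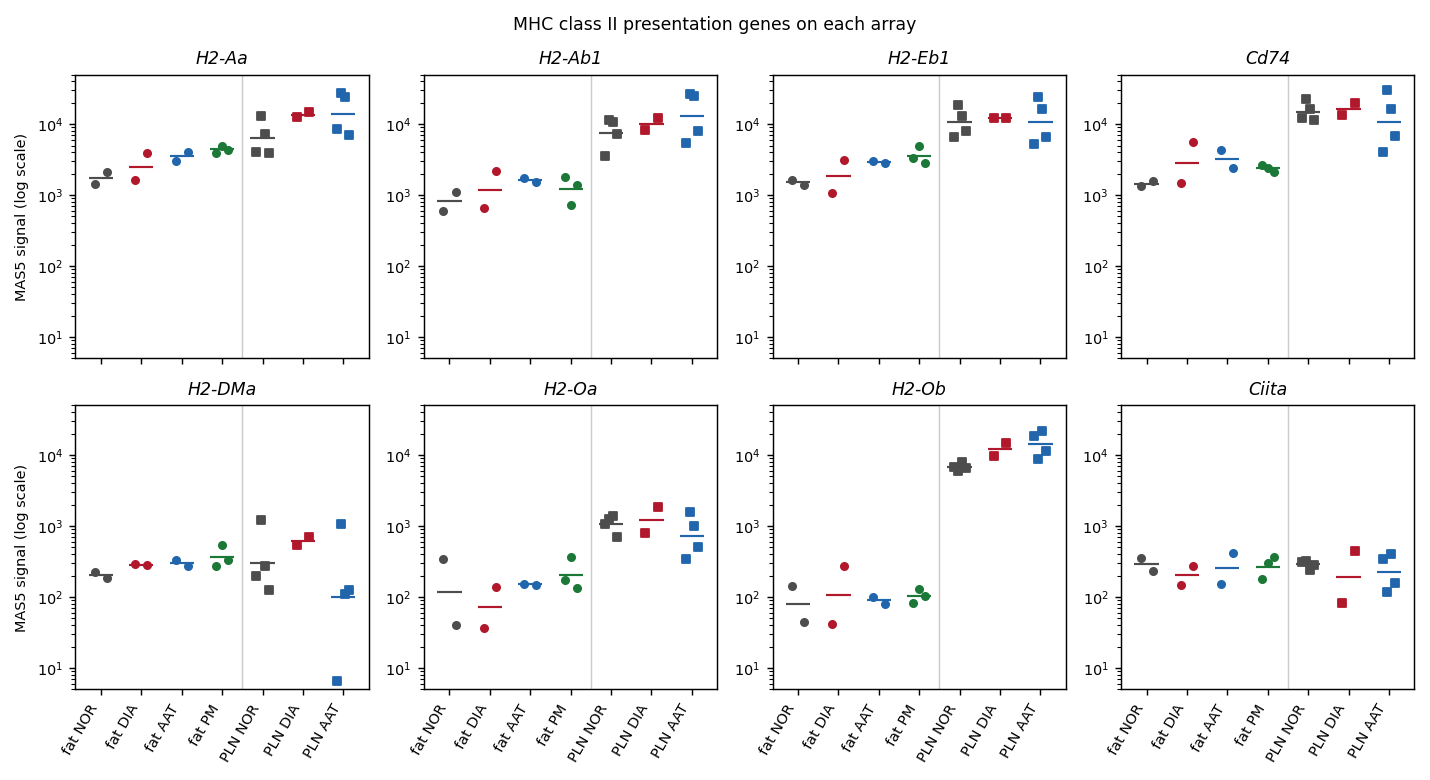
MAS5 signal of the 8 genes on each of the 19 arrays (log scale), 1 point an array (circles fat, squares PLNs), with a line at the geometric mean of each group. H2-Ob shows the widest gap between tissues among the 8, H2-DMa ranges from 6.65 to 1216 in PLNs, and Ciita lies between 81.7 and 442 in every group.

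Lymph nodes against fat in NOR mice was the one comparison in which many members passed the test. 7 of the 16 probe sets were called higher in NOR PLNs (adjusted p under 0.05), beside 11.9% of all probe sets, and every PLN array lay above both fat arrays for 10 of 16 beside 25.1% of all. Without fat NOR replicate 2, 4 of 16 were called. The 7 named 6 genes: H2-Aa, H2-Ab1, H2-Eb1, Cd74, H2-Oa and H2-Ob. All 8 genes lay above the median of all probe sets, and their median relative log2 change was 3.04.

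H2-Ob, the beta chain of H2-O, stood furthest apart. Its signal was 142 and 44.0 on the NOR fat arrays and 6813, 5959, 8039 and 6581 on the NOR PLN arrays. The 4 node arrays lay close together and the 2 fat arrays were both far below them, with a relative log2 change of 6.47 ± 0.58 (SE; adjusted p = 5.68e-08). H2-Oa, its alpha chain partner, had signals of 347 and 40.1 in NOR fat and of 1059, 1276, 1399 and 701 in NOR PLNs, a relative log2 change of 3.23 ± 0.77 (adjusted p = 0.00431). That call rested on fat NOR replicate 2, the low fat array: without it the relative log2 change was 1.86 with an adjusted p of 0.235.

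Cd74, the invariant chain, had signals of 1352 and 1568 in NOR fat and of 12284, 22272, 16416 and 11436 in NOR PLNs. The tissues did not overlap, and the relative log2 change was 3.41 ± 0.59 (adjusted p = 0.000227). H2-Eb1, the beta chain of I-E, was at 1643 and 1401 in NOR fat and at 6533, 18740, 13231 and 7963 in NOR PLNs, a relative log2 change of 2.85 ± 0.54 (adjusted p = 0.00058). H2-Ab1, the beta chain of I-A, was at 589 and 1124 in NOR fat and at 3551, 11485, 10682 and 7354 in NOR PLNs. By the main probe sets the arrays of the 2 tissues did not overlap for either beta chain. That of I-A had a relative log2 change of 3.25 ± 0.61 (adjusted p = 0.000535). By probe set 1451721_a_at of H2-Ab1 the tissues overlapped, at 646 and 443 in NOR fat and 619, 4811, 1742 and 547 in NOR PLNs. By 1425477_x_at they did not, at 74.2 and 79.1 in NOR fat and 886, 6093, 2059 and 662 in NOR PLNs.

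H2-Aa, the alpha chain of I-A, had the smallest change among the called genes. Its signal was 1451 and 2110 in NOR fat and 4070, 13143, 7369 and 3953 in NOR PLNs, a relative log2 change of 1.89 ± 0.53 (adjusted p = 0.0152). The lowest node arrays were closer to fat than those of any other called gene, and without fat NOR replicate 1 or 2 the adjusted p was 0.161 or 0.054. Its next 2 probe sets, 1438858_x_at and 1452431_s_at, had relative log2 changes of 0.75 ± 0.54 and 1.44 ± 0.80 and did not pass the test (adjusted p = 0.371 and 0.219). The last one, 1443783_x_at, had signals of 2.25 to 128 over all 19 arrays.

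H2-DMa and Ciita did not pass the test between tissues. H2-DMa, the alpha chain of H2-DM, was at 224 and 187 in NOR fat and at 197, 1216, 276 and 127 in NOR PLNs, so that PLN NOR replicate 2 alone lay far above fat (relative log2 change 0.61 ± 1.16, adjusted p = 0.772). Ciita was at 359 and 236 in NOR fat and at 311, 327, 238 and 286 in NOR PLNs, with a relative log2 change of 0.03 ± 0.71 (adjusted p = 0.993). By its main probe set the 2 tissues lay closest together for Ciita among the 8 genes, but its other probe sets had 1.24 ± 0.92 and 1.84 ± 1.15 (adjusted p = 0.376 and 0.278), every PLN array above both fat arrays.

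**Figure D2:**
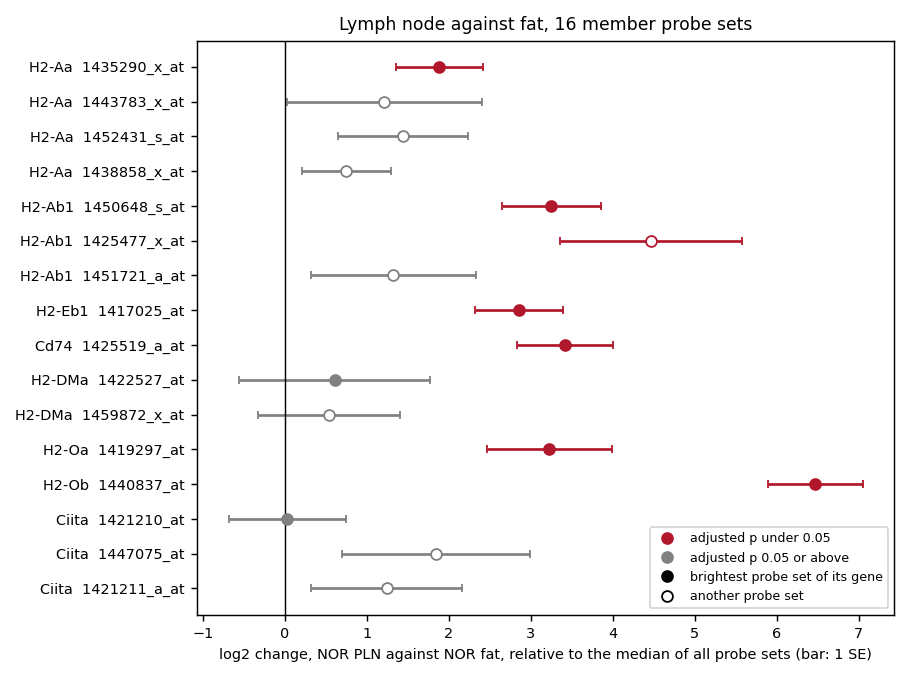
Log2 change of the 16 member probe sets between NOR PLNs and NOR fat, relative to the median of all probe sets, with bars of 1 SE. Red points passed the test (adjusted p under 0.05), filled points are the brightest probe set of each gene. H2-Ob lies at 6.47, most class II chains and Cd74 between 1.89 and 3.41, and the main probe sets of H2-DMa and Ciita at 0.61 and 0.03.

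In fat, H2-Aa, H2-Eb1 and Cd74 had higher signals on all treated arrays than on both NOR arrays, while the 2 DIA arrays were split, and no difference passed the test. H2-Aa was at 1451 and 2110 in NOR, 1616 and 3897 in DIA, 3018 and 4082 in AAT, and 3958, 4988 and 4391 in PM. H2-Eb1 was at 1643 and 1401 in NOR, 1056 and 3173 in DIA, 2989 and 2839 in AAT, and 3361, 4859 and 2794 in PM. For both genes each AAT and PM array lay above both NOR arrays, DIA replicate 1 was among the NOR arrays or below them, and DIA replicate 2 was among the treated ones.

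Cd74 was at 1352 and 1568 in NOR, 1472 and 5572 in DIA, 4332 and 2389 in AAT, and 2699, 2404 and 2084 in PM. H2-Ab1 was at 589 and 1124 in NOR, 664 and 2168 in DIA, 1751 and 1529 in AAT, and 1791, 722 and 1380 in PM. Cd74 was highest on DIA replicate 2 and again above NOR on all treated arrays, whereas H2-Ab1 on PM replicate 2 lay between the NOR arrays.

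None of the 16 probe sets was called in any fat comparison, nor was any other probe set, 0% of 45037 in each of the 5 (limma, adjusted p under 0.05). At the thresholds the study used, a fold change over 2 with an unadjusted p of at most 0.05, which were here applied to limma's p, 1 of 16 passed for DIA against NOR beside 7.67% of all probe sets. 1 passed for AAT against DIA beside 3.85%, 2 for PM against DIA beside 7.69%, 4 for AAT against NOR beside 4.56% and 3 for PM against NOR beside 3.12%. At an unadjusted p under 0.05 alone, 1, 1, 4, 4 and 3 of the 16 passed in that order, beside 8.96%, 4.74%, 9.69%, 5.07% and 3.41% of all. The counts at the study's thresholds moved with the array left out, most in the comparisons with DIA when a DIA array was left out. In those refits the share over all probe sets was not counted. Leaving out a NOR, DIA or AAT array left 1 in its group.

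The 4 in AAT against NOR were Cd74, H2-Ab1 probe set 1425477_x_at and 2 probe sets of H2-Aa. The relative log2 change was 1.27 ± 0.52 (SE; unadjusted p = 0.0495) for Cd74 and 1.14 ± 0.41 (unadjusted p = 0.0304) for H2-Aa, with limma's adjusted p at 0.937 for both. The 3 in PM against NOR were 2 probe sets of H2-Aa and that of H2-Eb1, with relative log2 changes of 1.32 ± 0.37 (unadjusted p = 0.00388) for the main probe set of H2-Aa and of 1.22 ± 0.42 (unadjusted p = 0.0128) for H2-Eb1, and adjusted p of 1 for both. Every AAT array lay above both NOR arrays for 8 of the 16 probe sets, beside 12.9% of all probe sets, and every PM array did for 8 of 16, beside 8.68%. The 2 comparisons share the NOR arrays, so a low NOR array enters both.

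The comparisons with DIA carried the split between its 2 arrays. DIA against NOR gave relative log2 changes of 0.63 ± 0.41 for H2-Aa (adjusted p = 0.731), 0.67 ± 0.57 for H2-Ab1 (adjusted p = 0.8), 0.38 ± 0.46 for H2-Eb1 (adjusted p = 0.889) and 1.08 ± 0.52 for Cd74 (adjusted p = 0.612). Without DIA replicate 2 the first 3 were -0.09, -0.27 and -0.50, and without DIA replicate 1 they were 1.30, 1.56 and 1.21, so their direction rested on which DIA array was kept. Cd74 was at 0.036 without DIA replicate 2 and at 2.08 without DIA replicate 1. AAT against DIA gave 0.53 ± 0.41 for H2-Aa and 0.72 ± 0.46 for H2-Eb1 (adjusted p = 1 for both), and PM against DIA gave 0.67 ± 0.37 and 0.82 ± 0.42 (adjusted p = 0.513 and 0.502). Without DIA replicate 1 the latter pair was at 0.014 and 0.0018, and AAT against DIA was at -0.14 and -0.12.

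**Figure D3:**
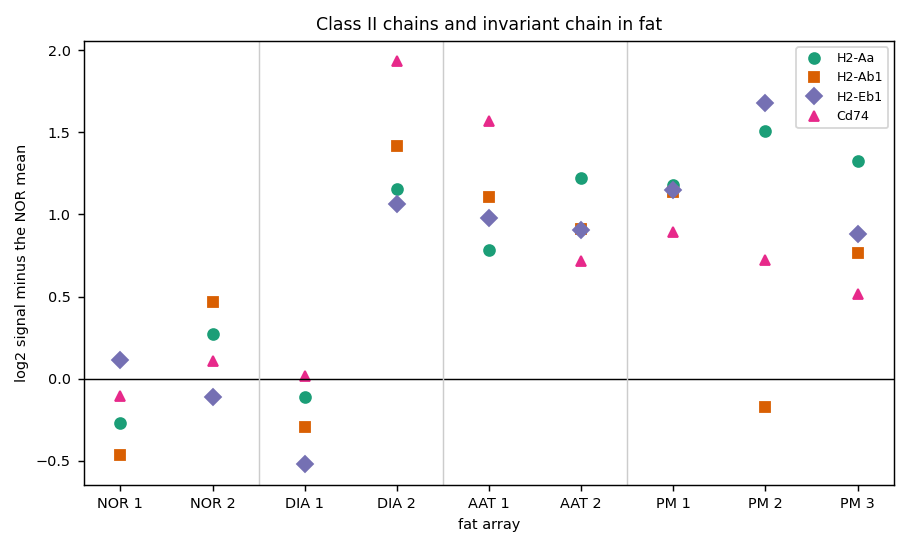
Log2 signal of H2-Aa, H2-Ab1, H2-Eb1 and Cd74 on the 9 fat arrays, minus the mean of the 2 NOR arrays of each gene. DIA replicate 1 lies near or under 0 for all 4 genes and DIA replicate 2 above 1 for all 4, and the AAT and PM arrays lie above 0 but for H2-Ab1 on PM replicate 2.

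The ratio of the 3′ to the 5′ probe sets of actin, a sign of RNA quality and of how the amplification ran, was 15.2 and 15.5 on the DIA fat arrays, 3.63 and 4.3 on NOR, 9.08 and 5.87 on AAT and 3.35 to 6.32 on PM. It thus separated both DIA arrays from NOR and was close to equal on the 2 DIA arrays. That of GAPDH was 2.46 on DIA replicate 1 and 4.63 on DIA replicate 2, 0.91 and 0.946 on NOR, 2.31 and 0.79 on AAT and 0.904 to 1.08 on PM, so it was highest on DIA replicate 2, where Cd74 was also highest. The summed signal of 13 macrophage and monocyte markers was 9460 and 9653 in NOR fat, 18640 and 31250 in DIA, 12050 and 19680 in AAT, and 12990 to 15040 in PM. It was lowest on the NOR arrays and highest on DIA replicate 2. The sum of 11 B cell markers was 5477 to 7690 on all fat arrays, and that of 11 dendritic cell markers was 3797 to 9010, both ends on NOR arrays. No marker of these lists was called in fat, nor was any other probe set. At the study's thresholds, 4 of the 13 macrophage and monocyte markers were higher and 0 lower for DIA against NOR, beside 7.67% of all probe sets. For PM against DIA 1 was higher and 4 were lower, beside 7.69%. For DIA against NOR 1 B cell marker was higher and 1 lower, and no dendritic cell marker passed. With the actin ratio as a covariate, the relative log2 change for DIA against NOR was -2.22 for H2-Ab1 and -0.37 for Cd74, the reverse of the values above. As measured they were -1.66 and 0.19, so the sign for Cd74 depended on the scaling. H2-Aa and H2-Eb1 kept their direction. The part of macrophage content and of the GAPDH ratio in the class II values was not tested.

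The peptide editors in fat were dim. H2-DMa was at 224 and 187 in NOR fat, 288 and 282 in DIA, 333 and 273 in AAT, and 272, 542 and 332 in PM, so that all 7 other arrays lay above both NOR arrays. Its relative log2 changes against NOR were 0.58 ± 0.52 for DIA, 0.69 ± 0.52 for AAT and 0.82 ± 0.47 for PM (adjusted p = 0.817, 0.941 and 1). Its other probe set, 1459872_x_at, went the other way for DIA against NOR (-1.78 ± 1.06, adjusted p = 0.626), with signals of 376 and 98.7 in NOR and of 61.7 and 43.8 in DIA. The 2 probe sets of H2-DMa had a Pearson r of -0.06 over the 9 fat arrays, so no direction can be given for the gene in fat.

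H2-Oa in fat was at 347 and 40.1 in NOR, 37.2 and 140 in DIA, 153 and 149 in AAT, and 173, 364 and 135 in PM. H2-Ob was at 142 and 44.0 in NOR, 42.1 and 277 in DIA, 101 and 80.2 in AAT, and 82.6, 130 and 104 in PM. For both chains the NOR arrays spanned or overlapped every other group, and for H2-Oa both AAT arrays lay above both DIA arrays (relative log2 change 1.11 ± 1.07, adjusted p = 1). The spread between the 2 NOR arrays was wider than any difference from the NOR mean, the relative log2 changes against NOR lying between -0.60 and 0.77 with SE of 0.96 to 1.07. Ciita was at 359 and 236 in NOR fat, 147 and 278 in DIA, 153 and 418 in AAT, and 178, 302 and 362 in PM, again with overlap in every comparison (relative log2 changes against NOR from -0.42 to -0.07).

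In PLNs, H2-Ob had higher signals on every DIA and AAT array than on any NOR array, while the groups of the other genes overlapped by their main probe sets. H2-Ob was at 6813, 5959, 8039 and 6581 in NOR, 9714 and 14910 in DIA, and 18433, 8676, 22059 and 11315 in AAT. The gap to the highest NOR array was smallest for AAT replicate 2 and widest for AAT replicate 3. For such separations of groups within PLNs, here and below, the share over all probe sets was not counted. Against NOR the relative log2 change was 0.93 ± 0.43 (measured 0.82, adjusted p = 0.552) for DIA and 1.78 ± 0.35 (measured 1.05, adjusted p = 0.0859) for AAT.

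H2-Aa was at 4070, 13143, 7369 and 3953 in NOR PLNs, 12408 and 14956 in DIA, and 8467, 27047, 24254 and 7062 in AAT. NOR replicate 2 lay among the DIA arrays, and AAT was split, replicates 2 and 3 above every other array and replicates 1 and 4 within the NOR range. The relative log2 change was 1.23 ± 0.57 (measured 1.12, adjusted p = 0.538) for DIA against NOR and 1.89 ± 0.47 (measured 1.16, adjusted p = 0.136) for AAT against NOR. The second probe set of H2-Aa, 1438858_x_at, had 3672, 4457, 2945 and 2980 in NOR, 16687 and 3479 in DIA, and 15244, 13712, 6442 and 12196 in AAT. It was the 1 member probe set called in a comparison within PLNs, with a relative log2 change of 2.43 ± 0.43 for AAT against NOR (measured 1.71, adjusted p = 0.0347). Its order of the AAT arrays was not that of the main probe set, with which it had a Pearson r of 0.40 over the 10 PLN arrays. The dimmest probe set of H2-Aa, 1443783_x_at, went the other way for DIA against NOR. It was at 17.8 to 52.1 in NOR, 6.69 and 2.49 in DIA, and 50.2 to 66.6 in AAT. With rank product p-values it passed the study's thresholds for DIA against NOR.

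1 of 16 probe sets was called for AAT against NOR in PLNs, beside 3.74% of all probe sets, and none for DIA against NOR, beside 0.0555%, or AAT against DIA, beside 0.0999%. At the study's thresholds 5 of 16 passed for AAT against NOR (23.4% of all), 3 for DIA against NOR (9.81%) and 2 for AAT against DIA (16.5%). At an unadjusted p under 0.05, 5, 3 and 2 of the 16 passed, beside 24.8%, 9.97% and 16.8% of all. With 1 array left out the counts at the study's thresholds were 2 to 6, 0 to 4 and 1 to 5. The number called in AAT against NOR went from 0 to 4 with the array left out. It was 4 without AAT replicate 2, which was the brightest AAT array for Cd74, H2-Eb1 and H2-Aa, and 0 without any 1 of the NOR arrays, without AAT replicate 4 and under quantile normalization. Without AAT replicate 2, H2-Ob passed with an adjusted p of 0.0384. In the fits with 1 array left out, the share over all probe sets was not counted.

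Cd74 was at 12284, 22272, 16416 and 11436 in NOR PLNs, 13624 and 19552 in DIA, and 4079, 30495, 16501 and 6844 in AAT. H2-Eb1 was at 6533, 18740, 13231 and 7963 in NOR, 12390 and 12082 in DIA, and 5216, 23847, 16120 and 6497 in AAT. H2-Oa was at 1059, 1276, 1399 and 701 in NOR, 789 and 1886 in DIA, and 342, 1601, 1009 and 499 in AAT. On AAT arrays all 3 genes had the same order, replicate 1 lowest, then 4, 3 and 2, and both the lowest and the highest array of each gene in PLNs, but for the highest of H2-Oa, were AAT arrays. The main probe set of H2-Ab1 had that order too.

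The group means of these 3 genes differed by less than the spread. For AAT against NOR the relative log2 changes were 0.26 ± 0.49 for Cd74, 0.73 ± 0.46 for H2-Eb1 and 0.16 ± 0.48 for H2-Oa, and the measured changes were -0.47, 0.00 and -0.57, so that the sign for Cd74 and H2-Oa depended on the scaling. Under quantile normalization all 3 were below 0, at -1.22, -0.74 and -0.49. For DIA against NOR the relative log2 changes were 0.23 ± 0.60, 0.31 ± 0.56 and 0.30 ± 0.59 (adjusted p = 0.971, 0.946 and 0.954). For AAT against DIA they were 0.00 ± 0.60, 0.39 ± 0.56 and -0.17 ± 0.59, with H2-Eb1 at -0.74 under quantile normalization. The measured changes were all below 0 (adjusted p = 0.628, 0.88 and 0.519), so the sign for H2-Eb1 depended on the scaling. The mean log2 signals were 13.41, 13.38 and 9.50 in AAT and 13.99, 13.58 and 10.25 in DIA.

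**Figure D4:**
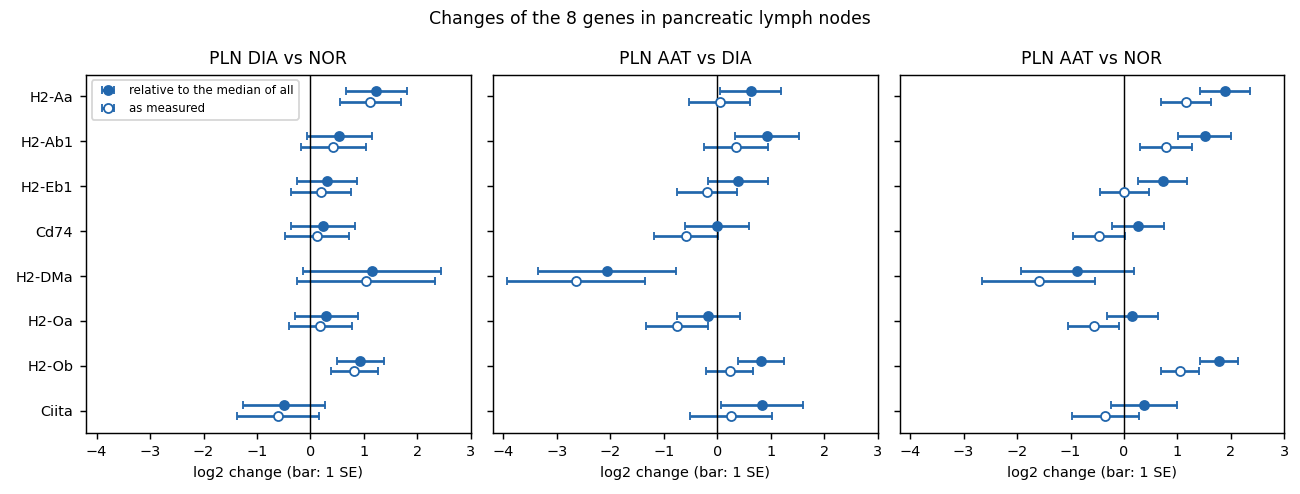
Log2 changes of the 8 genes in PLNs with bars of 1 SE, filled points relative to the median of all probe sets and open points as measured. In both AAT comparisons the filled and open points lie apart by the median shift of 0.58 or 0.72, and on either scale H2-Aa and H2-Ob lie above 0 for AAT against NOR.

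The probe sets of H2-Ab1 had differences of opposite sign between AAT and NOR PLNs, none of which passed the test. Its main probe set, 1450648_s_at, was at 3551, 11485, 10682 and 7354 in NOR, 8344 and 12325 in DIA, and 5392, 26367, 24676 and 7999 in AAT. Probe set 1451721_a_at was at 619, 4811, 1742 and 547 in NOR, 1146 and 1336 in DIA, and 62.5, 2727, 742 and 124 in AAT. Probe set 1425477_x_at was at 886, 6093, 2059 and 662 in NOR, 951 and 1491 in DIA, and 55.2, 2544, 770 and 166 in AAT. The main probe set had its 2 highest signals on AAT arrays and each of the others its 2 lowest, and among the AAT arrays replicate 1 was lowest by each of the 3.

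For AAT against NOR the relative log2 change was 1.51 ± 0.49 by the main probe set (measured 0.78, adjusted p = 0.323), -1.15 ± 0.87 by 1451721_a_at (measured -1.88, adjusted p = 0.189) and -1.45 ± 0.86 by 1425477_x_at (measured -2.17, adjusted p = 0.131). The latter pair had a Pearson r of 0.99 over the 10 PLN arrays, and the main probe set had 0.52 and 0.46 with them. The log2 ratio of the main probe set to the other 2 (their mean log2 signal) was 2.36 ± 1.04 (SD, n = 4) in NOR, 3.06 ± 0.09 (n = 2) in DIA and 5.17 ± 1.37 (n = 4) in AAT. AAT differed from NOR with an exact two-sided permutation p of 0.0571 (adjusted over 3 comparisons 0.171), where the smallest possible p is 0.0286, and from DIA with an exact p of 0.133. This ratio was looked at after the probe sets had been seen to part.

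The 3′ to 5′ ratio of GAPDH was 7.43, 20.6, 8.3 and 25 on the AAT arrays of the PLNs, 5.55 to 8.01 on NOR and 10.8 and 10 on DIA, while that of actin was 0.881 to 2.31 on all PLN arrays. The H2-Ab1 ratio was highest on AAT replicate 1 (6.52), where the GAPDH ratio was lowest among AAT arrays, and lowest on AAT replicate 2 (3.32). In fat it was 0.85 to 2.82 on all 9 arrays. Whether RNA quality takes part in the split was not tested beyond these values.

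**Figure D5:**
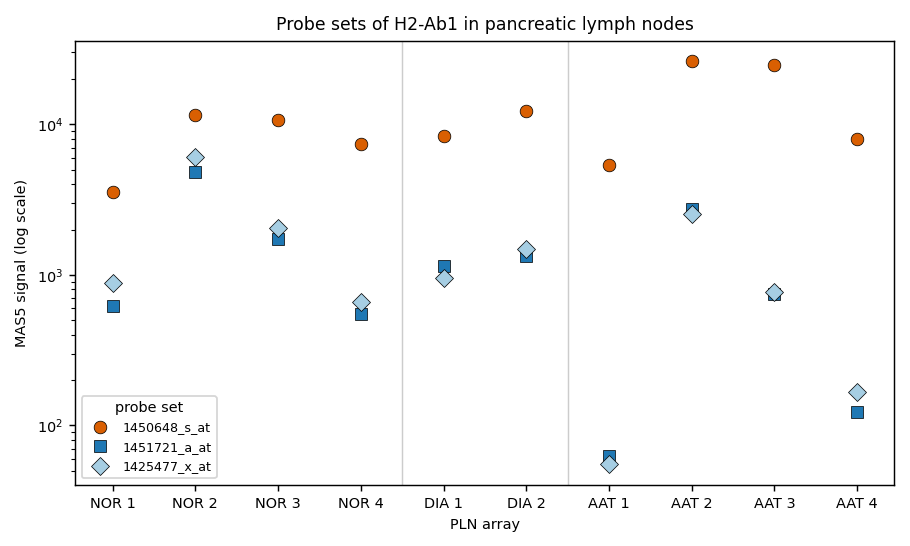
MAS5 signal (log scale) of the 3 probe sets of H2-Ab1 on each of the 10 PLN arrays. The gap between 1450648_s_at and the other 2 is widest on AAT replicates 1, 3 and 4 and on AAT replicate 2 it lies within the range of NOR, and it reaches 5392 against 55.2 and 62.5 on AAT replicate 1.

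H2-DMa in PLNs was at 197, 1216, 276 and 127 in NOR, 547 and 713 in DIA, and 6.65, 1085, 110 and 127 in AAT. The spread within NOR and AAT was so wide that the relative log2 change of AAT against DIA, -2.06 ± 1.29 (measured -2.64, adjusted p = 0.305), did not pass. The other probe set had -0.08 ± 0.79 for it (adjusted p = 0.69), with mean log2 signals of 7.13 in AAT and 7.79 in DIA. Ciita was at 311, 327, 238 and 286 in NOR PLNs, 81.7 and 442 in DIA, and 348, 117, 407 and 157 in AAT, with overlap in all comparisons. Its dimmest probe set, 1447075_at, met the study's thresholds for DIA against NOR in fat and in PLNs and for AAT against DIA in PLNs, with signals of 8.62 to 300 over all 19 arrays. In fat it was at 12.9 and 10.5 in NOR and 89.0 and 86.9 in DIA, and in PLNs at 15, 30.2, 86.9 and 68.3 in NOR, 218 and 300 in DIA, and 16, 10.5, 56.4 and 95.8 in AAT. The DIA arrays were above all NOR arrays in both tissues (relative log2 change 3.02 ± 1.22 in fat and 2.77 ± 1.22 in PLNs, adjusted p = 0.521 and 0.474), but the 2 brighter probe sets of Ciita had -0.42 and 0.21 in fat and -0.49 and -0.17 in PLNs.

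The effects of diabetes and of AAT were compared between tissues directly. No member was called for either effect, beside 0.00444% of all probe sets for the DIA effect and 0% for the AAT effect. At an unadjusted p under 0.05, 1 and 2 of the 16 passed, beside 8.87% and 8.14% of all. The median SE over all probe sets was 1.38 in log2 for both effects, so large differences could go uncalled.

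Among themselves, some pairs of members went together in both tissues and others in 1 of them. Over the 10 PLN arrays, Cd74 had a Pearson r of 0.93 with H2-Oa, 0.91 with H2-Eb1 and 0.89 with H2-DMa, but -0.35 with H2-Ob and -0.11 with Ciita. Over the 9 fat arrays, H2-Aa and H2-Eb1 had 0.90, Cd74 and H2-Ab1 had 0.80, and Cd74 and H2-Oa had 0.24. In PLNs H2-Aa and H2-Eb1 had 0.77, and Cd74 and H2-Ab1 had 0.67. These are descriptions across arrays that share tissue and treatment groups and scaling, so no test is given. In PLNs H2-Ob was thus apart from its partner H2-Oa (r = -0.28), whereas in fat, where both were dim, the pair had 0.72.

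The genes whose pattern was most like the mean of H2-Aa, H2-Ab1, H2-Eb1 and Cd74 were sought among the brighter part of all genes. Over the 10 PLN arrays they were Pfn1 (profilin, an actin-binding protein, r = 0.98), Itm2c (0.98), Uqcr11 (a subunit of the respiratory chain, 0.97), Ctsz (cathepsin Z, a lysosomal protease, 0.97) and Mrpl58 (0.97), out of 10395 genes compared. Over the 9 fat arrays they were Wbp2 (0.93), Creb3l1 (0.92), Fuca2 (a fucosidase, 0.89), Igkv8-30 (an antibody light chain segment, 0.89) and Prtn3 (proteinase 3 of neutrophils, 0.89), out of 11255. The remaining members were less like that mean: H2-DMa, H2-Oa and H2-Ob had r of 0.68, 0.72 and 0.07 in PLNs and of 0.45, 0.37 and 0.56 in fat, and Ciita -0.15 and 0.10.

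Of 14 other genes of class II presentation, 13 had a probe set that names them alone. 5 were called higher in NOR PLNs than in NOR fat and none lower. They were Ctss (cathepsin S, which trims the invariant chain) at 4.00 ± 0.39 relative log2 change (adjusted p = 2.24e-07), Ifi30 (a thiol reductase of the endosome) at 3.04 ± 0.45, Cd83 at 2.90 ± 0.51, Marchf1 (a ubiquitin ligase of class II molecules) at 3.08 ± 0.56 and H2-DMb2 (a beta chain of H2-DM) at 2.67 ± 0.62. The median relative log2 change of the 13 was 1.58, beside 3.04 for the members and a median of all genes of -0.18. These values are for the brightest probe set of each gene over all arrays. The genes have 13 dimmer ones, of which 3 were called higher between tissues.

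In fat, Ctss was at 938 and 816 in NOR, 1757 and 3577 in DIA, 2367 and 2114 in AAT, and 1768, 1982 and 1276 in PM, above both NOR arrays on all 7 others. Its relative log2 change against NOR was 1.63 ± 0.38 for DIA, 1.49 ± 0.38 for AAT and 0.90 ± 0.34 for PM (adjusted p = 0.416, 0.908 and 1). By its brightest probe set no gene of the list was called in a comparison within fat or within PLNs. At the study's thresholds 2 were higher for DIA against NOR in fat by that probe set, Ctss and Marchf1 (1.79 ± 0.66, adjusted p = 0.501), and in PLNs 1 was lower, Marchf8 (-1.06 ± 0.51, adjusted p = 0.445). H2-Ea, the alpha chain of I-E that NOD mice lack, was at 16.8 to 676 over all 19 arrays by its main probe set, and its relative log2 change between tissues was 0.17 ± 1.29 (adjusted p = 0.96).

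H2-DMb2 differed by probe set. It and H2-DMb1 are closely similar genes, and whether the probe sets separate them was not tested. Of the 13 probe sets that were dimmer over all arrays, 2 were called within PLNs, both of H2-DMb2 and both higher for AAT against NOR. They had relative log2 changes of 2.29 ± 0.39 (measured 1.57, adjusted p = 0.0333) and 2.20 ± 0.39 (measured 1.48, adjusted p = 0.0417). The main probe set had 1.49 ± 0.54 (measured 0.77, adjusted p = 0.38) there, with overlap. In NOR PLNs it was the dimmer one, with a mean log2 signal of 11.85 against 12.50 and 12.62 for the pair. The first of the pair was at 5397, 6763, 7085 and 4411 in NOR, 7838 and 22340 in DIA, and 15090, 23560, 23730 and 10510 in AAT. By each of the pair, every AAT and every DIA array lay above all NOR arrays. They met the study's thresholds for DIA against NOR as well, with 1.30 ± 0.47 and 1.29 ± 0.48 (adjusted p = 0.398 and 0.406). Of the dimmer probe sets of the other genes, 2 were lower at those thresholds in each of these comparisons. Between NOR PLNs and NOR fat the same pair of probe sets of H2-DMb2 had 5.88 ± 0.57 and 7.67 ± 0.68, against 2.67 by the main one.

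Of 18 genes of class II transcription and interferon gamma signaling, 17 were measured, and 6 were called higher and 1 lower in NOR PLNs than in NOR fat. Irf8, a factor of B cells and dendritic cells, had a relative log2 change of 3.27 ± 0.58 (adjusted p = 0.000329), the kinase gene Jak2 2.26 ± 0.41 and Rfx5, a subunit of the factor on the X box, 1.45 ± 0.51 (adjusted p = 0.0489). Nfya and Nfyb, subunits of the factor on the Y box, had 1.51 ± 0.44 and 1.57 ± 0.46, and Creb1 had 1.35 ± 0.41. Irf4 was the lower one, with -1.71 ± 0.63 (adjusted p = 0.0486). Ifng was at 6.30 to 222 over all arrays, with no call.

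Rfx5 in PLNs was at 2942, 1581, 2218 and 1505 in NOR, 623 and 3032 in DIA, and 5387, 3741, 2542 and 6725 in AAT. The AAT arrays were mostly above the rest and DIA replicate 1 was far below (AAT against DIA 2.23 ± 0.55 relative log2 change, measured 1.65, adjusted p = 0.176). Its 2 highest AAT arrays, replicates 4 and 1, were the 2 lowest for Cd74 and H2-Oa. Irf1, which interferon gamma induces, was at 1567, 5216, 3237 and 1633 in NOR PLNs, 1753 and 2953 in DIA, and 870, 5838, 1506 and 1352 in AAT, and was at 1787 to 2677 on all fat arrays. In fat, Irf4 met the study's thresholds for DIA against NOR (-2.76 ± 0.73, adjusted p = 0.417).

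Costimulation and class I genes were followed for comparison. Of 8 costimulation genes, 5 were called higher in NOR PLNs than in NOR fat, led by Cd40 (4.09 ± 0.52), Icosl (4.11 ± 0.57) and Icam1 (2.52 ± 0.49). Of 14 measured class I presentation genes, 3 were, Nlrc5 (the class I coactivator related to Ciita, 3.70 ± 0.48), Pdia3 (2.37 ± 0.48) and Tap1 (2.87 ± 0.61). None of either list was called within fat or within PLNs by any probe set. In fat, Nlrc5, Tap1 and Tap2 met the study's thresholds for DIA against NOR (1.5 ± 0.50, 2.08 ± 0.82 and 1.85 ± 0.79, adjusted p = 0.47, 0.521 and 0.556), as did Cd274, the ligand PD-L1 (1.73 ± 0.60, adjusted p = 0.478).

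Markers of the cells that usually carry class II were followed in the same arrays, each gene by its brightest probe set. 7 of 11 B cell markers and 4 of 11 dendritic cell markers were called higher in NOR PLNs than in NOR fat, among them Cd79a (5.82 ± 0.82) and Ccr7 (6.65 ± 0.74), and 1 B cell marker, Ebf1, was lower (-1.82 ± 0.44). The summed B cell markers were at 15570 to 23730 in NOR PLNs, 18980 and 41450 in DIA and 13740 to 32200 in AAT, against 5477 to 7690 in fat. The groups overlapped, and 0 of 11 were called within PLNs (0 to 1 at the study's thresholds, by comparison). The median relative log2 change of the 11 was 0.32 for DIA against NOR (measured 0.21). For AAT against NOR it was 0.67 (measured -0.05), beside 0.22 for all genes on the relative scale. A dimmer probe set of the B cell gene Fcer2a was called lower for AAT against NOR (-2.28 ± 0.77, adjusted p = 0.0373).

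The summed dendritic cell markers were at 19810 to 24170 in NOR PLNs, 33020 and 35760 in DIA and 35060 to 76290 in AAT, each DIA and AAT array above all NOR arrays, but a sum rests on its brightest genes. For DIA against NOR 6 of the 11 lay below the median of all probe sets, with a median relative log2 change of -0.21 (measured -0.33). At the study's thresholds 1 was higher and 2 were lower. For AAT against NOR 7 lay above and 4 below (median 0.66, measured -0.06), and 1 was called, Fscn1 (fascin, of mature dendritic cells), with 2.55 ± 0.39 (adjusted p = 0.021). A dimmer probe set of Zbtb46, a factor of classical dendritic cells, was called lower (-1.24 ± 0.53, adjusted p = 0.045). The defining gene Itgax went the other way, at 655 to 808 in NOR, 124 and 348 in DIA and 196 to 502 in AAT (AAT against NOR -0.27 ± 0.48, measured -0.99, adjusted p = 0.208).

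The summed macrophage and monocyte markers were at 35800 to 56610 in NOR PLNs, 52090 and 68160 in DIA and 57590 to 105200 in AAT. For DIA against NOR 8 of the 13 lay below the median of all probe sets (median relative log2 change -0.67, measured -0.78). At the study's thresholds 0 were higher and 1 was lower. For AAT against NOR 11 lay above (median 1.15, measured 0.43). By its brightest probe set Csf1r was called higher in AAT than in NOR (2.43 ± 0.36, adjusted p = 0.0203) and than in DIA (3.07 ± 0.44, adjusted p = 0.0363). The other probe set of Csf1r was called in neither comparison, with overlap in both. It was at 923, 1895, 1397 and 981 in NOR, 750 and 794 in DIA, and 758, 2417, 1097 and 1019 in AAT. Markers of the tissue around the node moved with the groups as well. The summed adipocyte markers were at 7904 to 28170 in AAT, 2969 to 5461 in NOR and 2368 and 4671 in DIA, and the acinar markers reached 297400 on AAT replicate 3 and 15560 on DIA replicate 1, beside 538 to 2853 on the other 8 PLN arrays. Without AAT replicate 3 the relative log2 change of H2-Ob for AAT against NOR was 1.57. No marker signal was listed at 0, and the part of these cells in the class II values was not tested.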

How the data were processed

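The members and the gene lists were chosen with earlier results of these data known. The deposited table holds 1 MAS5 signal per probe set and array, an intensity on a linear scale that the authors scaled to a common target on each array. MAS5 is named in the submitters' processing notes, and no version of it is given in the sources used here. RMA and rank products, which the study's methods name, underlie no value here except 1 alternative with rank products. Signals under 1 were set to 1 and log2 was taken, with no further normalization of the deposited values. 64 control probe sets were left out. Symbols of the platform were updated by their Entrez identifiers.

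RNA had been extracted with Trizol and amplified with the WT-Ovation Pico system, per the labels. Over all 45037 probe sets, limma 3.58.1 (R 4.3.3) was run on group means with eBayes and a variance trend, separately for fat and PLNs and jointly for comparisons between tissues, with Benjamini-Hochberg adjustment and a threshold of 0.05. The 2 fat comparisons of AAT and PM with NOR were added after the data had been seen. The scripts were tested on simulated data. Sequences are from RefSeq (GRCm38.p6), where H2-Ab1, Cd74 and Ciita have no entry in the table used.

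Named were all member probe sets, up to 3 genes of a list with the smallest p in 4 comparisons (DIA against NOR in either tissue, PLN AAT against DIA, NOR PLN against NOR fat), a fixed set of other genes where a probe set names them alone, and the 5 genes most like the members. Others were named after their values were seen. Their number, 2 to 4 arrays a group, limits the precision. Alternatives were fits of only the groups compared, other normalizations, an added constant, a filter, a replicate block, the actin ratio as covariate, gene means, rank products and leaving out each array.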

Additional observations from a re-analysis of the deposited data

Results flagged for a closer look

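Among the groups of 4 arrays, each member probe set was checked for an array far from the other 3. Of 32 such checks, 1 stood out: the second probe set of H2-DMa, 1459872_x_at, on PLN NOR replicate 1, with a signal of 532 against 204 to 235 on the other NOR arrays. The gap took 0.856 of the range. Chance alone flags about 1 in 20 groups. The main probe set of H2-DMa was not high on that array (197), and the other members were at or below their group medians or, for H2-Ob and Ciita, above them.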

How the results depend on the processing

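The calls between NOR PLNs and NOR fat were stable under the normalizations, the added constant, the filter and the block, with 7 or 8 of 16 probe sets called. Values within a tissue rest on 2 to 4 arrays a group, and no member probe set passed the test within fat under any alternative that was run. The cause of each move below was not tested, and values are relative log2 changes unless they are counts of probe sets. Under the alternatives the share over all probe sets was not counted, save for the rank products, so these counts describe the members alone.

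When only the 2 groups compared were fitted, the number of member probe sets passing the study's thresholds was 1 for fat PM against DIA and 4 for PLN AAT against DIA. Under quantile normalization it was 0 for fat AAT against DIA, 1 for fat AAT against NOR and 1 for PLN AAT against DIA, 0 probe sets were called for PLN AAT against NOR, and the median of the member genes was -0.51 for PLN AAT against DIA and -0.22 for PLN AAT against NOR. The change turned there for H2-Ab1 to 0.018 (fat PM against DIA), for Ciita to 0.0403 (fat AAT against NOR), for H2-Eb1 to -3e-04 and Cd74 to -0.15 (PLN DIA against NOR), for H2-Aa to -0.53, H2-Ab1 to -0.25, H2-Eb1 to -0.74 and H2-Ob to -0.41 (PLN AAT against DIA), and for H2-Eb1 to -0.74, Cd74 to -1.22 and H2-Oa to -0.49 (PLN AAT against NOR). With each array centred on its median, 0 passed the study's thresholds for fat AAT against DIA and 1 for fat PM against DIA, and 2 were called for PLN AAT against NOR, H2-Ob among them (adjusted p = 0.0331). With 32 added to the signal, H2-Oa turned to -0.061 for PLN AAT against NOR. Without the dimmest 40% of probe sets, 0 passed for fat DIA against NOR, 0 for fat AAT against DIA, 1 for fat PM against DIA, 1 for PLN DIA against NOR and 0 for PLN AAT against DIA, and for PLN AAT against NOR Cd74 turned to -0.0034 and H2-Oa to -0.10. With the mean over a gene's probe sets the median was 0.58 for fat PM against DIA. With rank product p-values 3 passed for fat DIA against NOR, beside 11.8% of all probe sets.

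The replicate numbers are those of the titles. In PLNs same-numbered arrays deviated together more often (correlation over 0.1 in 6 of 8 pairs, median 0.21) than the others (6 of 24, median -0.06). In fat they did not (2 of 12 pairs, beside 4 of 18). The numbers were not taken as pairs in the main fits, where 1 probe set was called for PLN AAT against NOR. With the replicate number as a block, 0 passed the study's thresholds for fat AAT against DIA and 4 for fat PM against DIA, 4 were called for PLN AAT against NOR (H2-Aa among them, adjusted p = 0.0429), Cd74 turned to 0.0031 for PLN AAT against DIA and Ciita to -0.0495 for PLNs against fat.

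With the actin ratio as a covariate, which in PLNs was chosen after seeing the data, 0 passed for fat DIA against NOR, 0 for fat PM against DIA and 4 for PLN AAT against DIA, 2 were called for PLN AAT against NOR, and the median was -0.48 for PLN DIA against NOR. The change turned for H2-Ab1 to -2.22, Cd74 to -0.37, H2-Oa to 1.61 and Ciita to 0.55 (fat DIA against NOR), for H2-DMa to -0.17, H2-Oa to -0.15 and Ciita to -0.21 (fat AAT against DIA), and for H2-Ab1 to 2.20, Cd74 to 0.74, H2-DMa to -0.20, H2-Oa to -0.51 and Ciita to -0.57 (fat PM against DIA). It turned for H2-Ab1 to -0.18 and Ciita to 0.36 (fat AAT against NOR), for Ciita to 0.035 (fat PM against NOR), for H2-Aa to -0.011, H2-Ab1 to -0.56, H2-Eb1 to -0.82, Cd74 to -0.71, H2-DMa to -0.78 and H2-Oa to -0.28 (PLN DIA against NOR), and for Cd74 to 0.82 and H2-Oa to 0.33 (PLN AAT against DIA).

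With each array left out in turn, the number passing the study's thresholds was 0 to 8 for fat AAT against DIA, 1 to 4 for fat AAT against NOR, 0 to 5 for fat DIA against NOR, 1 to 6 for fat PM against DIA, 1 to 5 for PLN AAT against DIA, 2 to 6 for PLN AAT against NOR and 0 to 4 for PLN DIA against NOR. The number called was 4 to 7 for PLNs against fat and 0 to 4 for PLN AAT against NOR. The median was -0.13 to 1.25 for fat AAT against DIA, 0.57 to 1.00 for fat AAT against NOR, -0.39 to 1.25 for fat DIA against NOR, -0.11 to 1.03 for fat PM against DIA and -0.21 to 0.99 for PLN AAT against DIA.

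By gene, leaving out an array gave for fat AAT against DIA Cd74 -0.78 to 1.25, Ciita -0.24 to 0.91, H2-Aa -0.14 to 1.24, H2-Ab1 -0.40 to 1.42, H2-DMa -0.22 to 0.38, H2-Eb1 -0.12 to 1.59 and H2-Ob -1.62 to 1.22. For fat AAT against NOR it gave Ciita -0.67 to 0.48, H2-Oa -0.90 to 1.94 and H2-Ob -0.35 to 1.06. For fat DIA against NOR it gave Ciita -0.96 to 0.076, H2-Aa -0.095 to 1.30, H2-Ab1 -0.27 to 1.56, H2-Eb1 -0.50 to 1.21, H2-Oa -1.96 to 0.83 and H2-Ob -0.89 to 1.96. For fat PM against DIA it gave Cd74 -1.40 to 0.63, Ciita -0.22 to 0.81, H2-Ab1 -1.01 to 0.81 and H2-Ob -1.59 to 1.24, and for fat PM against NOR Ciita -0.34 to 0.088, H2-Ab1 -0.002 to 1.17, H2-Oa -0.64 to 2.24 and H2-Ob -0.32 to 1.12. For PLNs against fat it gave Ciita -0.10 to 0.24, H2-Aa 1.46 to 2.35, H2-DMa -0.14 to 1.07 and H2-Oa 1.86 to 4.69. For PLN AAT against DIA it gave Cd74 -0.58 to 0.64, Ciita -0.66 to 2.43, H2-Eb1 -0.084 to 0.84 and H2-Oa -1.08 to 0.84, for PLN AAT against NOR Cd74 -0.32 to 0.82, H2-DMa -2.10 to 0.52, H2-Oa -0.31 to 0.61 and H2-Ob 1.57 to 1.93, and for PLN DIA against NOR Cd74 -0.36 to 0.68, Ciita -2.04 to 0.92, H2-Ab1 -0.0701 to 1.02, H2-Eb1 -0.0021 to 0.64 and H2-Oa -0.66 to 1.12.

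Of the other recomputed values, 445 single-gene values kept their direction and side of the threshold under the alternatives that left out no array. Under the same alternatives 175 counts and medians stayed near their main value, whatever the sign of a median. Near meant within a fixed factor for a count. For a median it meant within the SD, inside groups, of the members' median signal on an array (0.28 in fat, 0.68 in PLNs and 0.55 over both, in log2). Where a group spans a lone array after leaving one out, its spread was taken from the other groups.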
